A study of Mus musculus with 2 samples.

Results

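Long uninterrupted transcribed contigs are stretches of the mouse genome on which the deposited contig calls place continuous RNA signal on 1 strand over at least 5000 bases. They were chosen by length alone, as end minus start in the contig calls on the mm9 assembly, and 511 of 562412 contigs (0.0909%) reached that length. The tissue was the colon of C57BL/6J mice, adult at 8 weeks, littermates of both sexes pooled, with no allele or treatment named in the labels. There were 2 libraries of 1 group, numbered biological replicates 1 and 2, made with strand kept from polyadenylated RNA over 200 nt after ribosomal RNA depletion and read as pairs of 76 nt. The labels list 1 donor record for both and do not say whether they came from separate animals, and nothing here compares conditions. They also give the same pooled sexes for both, yet the RNA of the inactive X chromosome, Xist, had 15.41 TPM (transcripts scaled per length and to a fixed total) in replicate 1 and 0.24 TPM in replicate 2, which goes against that label for replicate 2. Pancreatic acinar markers also set the libraries apart, with a sum of 26.15 TPM in replicate 1 and 27830 TPM in replicate 2. The contig calls are not split by library.

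In a spliced messenger RNA the exons lie apart on the genome, so RNA signal from it is broken up by the introns. A contig of this length can be 1 very long exon, such as those of some nuclear noncoding RNAs, giant coding exons or long last exons. It can also be a stretch in which exons and the introns between them are both covered, or signal that runs on past the annotated end of a gene. In the colon the most abundant transcripts come from goblet cells, which secrete mucus, from absorptive colonocytes and from the muscle layer.

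A few long contigs matched 1 annotated exon from end to end. The sequence where that exon joins the one before it marks the annotated boundary that the contig was set against. The joins below are read 5′ to 3′ from GENCODE vM21 transcripts, with the last 15 bases of the exon before in lower case and the first 15 bases of the long exon in capitals. The signal started at the first base in capitals, within 10 bases, and the bases in lower case lie outside the contig. Letters of the contigs themselves are not shown, because a genome of their build was not used here.
Apc2: acgggaggactacagGCAGGTGCTCCGTGA
Bcl2l13: cagcaaggtggctggGGCAGTGTCTTTAGT
Map3k20: caatccaacaccccgCTTCTCTTGCCTCTC
Mlec: ctgggacagtagacgATGTACCAAAGCTGC
The Apc2 exon is 7224 bases long and its contig 7219 bases (chr10:79773775-79780993, plus strand). The Bcl2l13 exon has 6165 bases and its contig 6162 (chr6:120836694-120842855, plus strand). For Map3k20 the exon has 5514 bases and the contig 5515 (chr2:72240045-72245559, plus strand). For Mlec the exon has 5164 bases and the contig 5165 (chr5:115592990-115598154, minus strand). Apc2 encodes a relative of the APC tumour suppressor, Bcl2l13 a mitochondrial protein of the BCL2 family, Map3k20 a stress-activated kinase and Mlec malectin, a carbohydrate-binding protein of the endoplasmic reticulum. Such exact matches were rare: both boundaries lay within 10 bases of an annotated exon's in 6 of 465 placed contigs (1.29%), the other 2 being in Hivep2, a zinc finger transcription factor, and Tacc2, a centrosomal protein. With junctions of at least 10 reads alone, the contigs of Apc2 and Hivep2 matched no gene. Among contigs named further below, those of Mki67, Hnf1aos1 and Slc6a7 and the shorter one of Neat1 then matched none either.

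The level of a contig is the deposited signal per base. For every contig it equalled the summed bases (all sequenced bases that fall in the contig) divided by the contig's length and by 1 constant of 17.1, to rounding, so it can be compared between contigs of different length. The 511 long contigs had a median level of 13.9, with quartiles of 6.72 and 30.1 and a range from 1.31 to 3200. Over all contigs the median was 0.228. Each longer class of contigs had a higher median level. It was 0.175 under 200 bases, 0.268 from 200 bases to under 1000, 1.87 from 1000 to under 2000, 5.51 from 2000 to under 5000 and 13.9 from 5000 bases upward. Within the long contigs the level had little relation to length, with a Spearman's rho of 0.105 over 511 contigs, given as a description of contigs that share both libraries. The contig calls give 1 value for the series, so no contig level has an error from replicates.

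**Figure D1:**
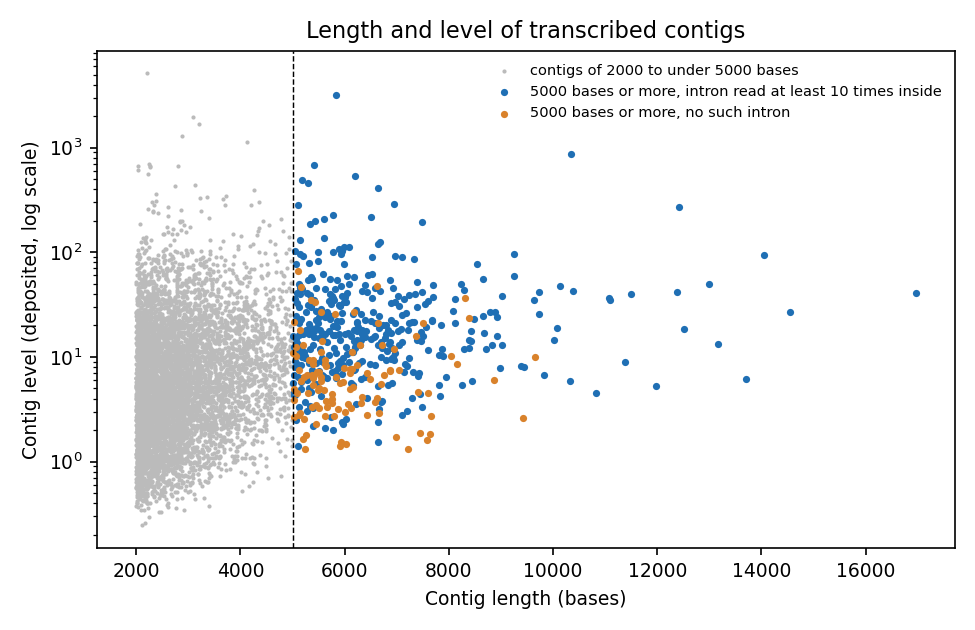
Each point is 1 contig of at least 2000 bases, with its length on the horizontal axis and its deposited level on a log scale on the vertical axis. The dashed line marks 5000 bases; to its right, contigs that hold an intron read at least 10 times are blue (median level 17.05) and those that hold none are orange (median level 6.06).

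Long contigs took a larger share of the signal than of the covered genome. They covered 3320673 of 183585535 bases (1.81%) and held 12.8% of the summed bases. Their mean depth, summed bases over length, was 650.5 against 91.79 for all contigs. A single contig on chromosome 17 decided part of this. It ran from 39979941 to 39985774 on the plus strand, had a level of 3200 and 319524022 summed bases, and alone held 1.9% of the bases of all contigs and 14.8% of those of the long ones. Without it the long contigs held 10.9% of the summed bases at a mean depth of 555.3. This contig got no gene name from the match by splice junctions described below, which cannot name a gene without introns. Whether an annotated gene without introns lies there was not tested, so it is named by position only. It counts among the long contigs that hold a junction of at least 10 reads. Its most read junction had 1617 reads at a mean depth of 54770, which is under 10% of that depth. Many of its junctions overlapped one another, and whether they come from splicing was not tested. The 5 contigs with the most summed bases held 30.1% of the bases of all long contigs: after the one on chromosome 17 these were contigs of Muc2, Krt19, the neighbours Ech1 and Lgals4, and Eef2.

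The minimum of 5000 bases separates contigs that differ little. Just above it lay a contig of 5005 bases in Etv3, a transcriptional repressor of the ETS family (level 11), one of 5012 bases in Ppp1r14a, an inhibitor of myosin phosphatase (5.67), and one of 5013 bases in Zc3h4, a zinc finger protein (15.9). Just below it lay contigs of 4998 bases on chromosome 6 (2.52), 4996 bases on chromosome 2 (14.1) and 4994 bases on chromosome 5 (1.41).

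Gene names came from splice junctions. Where junctions touching a contig gave a run of intron length, exon length and intron length that occurs in an annotated transcript of the same chromosome and strand, the contig took that transcript's gene. Of the 511 long contigs, 466 (91.2%) matched 1 gene, 13 matched several and 32 matched none. The 466 contigs belonged to 446 host genes, 20 of them with 2 contigs each. Of the host genes 433 were protein-coding. The noncoding hosts were the long intergenic RNAs Neat1, Xist, Carmn and AI480526, the antisense RNAs Hnf1aos1, Gm15401 and Gm15998, the processed transcripts Fendrr, Hoxa11os and Gm11946, and the pseudogenes Btnl5-ps and Pisd-ps1. The remaining host was Ighm, the constant region of the immunoglobulin mu heavy chain. A gene without introns cannot be named this way.

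Most long contigs spanned introns. A splice junction with at least 10 reads lay wholly inside 400 of 511 long contigs (78.3%, exact 95% binomial interval 74.4 to 81.8), against 42.4% of contigs from 2000 to under 5000 bases and 18.9% of those from 1000 to under 2000 bases. A longer contig has more room for an intron. A contig with such a junction is said here to hold introns, by the junction call alone. The 400 contigs held a median of 5 such junctions and 51.83% of their length lay between junction ends. Their median level was 17.05, against 6.06 in the 111 long contigs that held none. Contigs from 2000 to under 5000 bases differed in the same direction, with medians of 10.3 and 3.42. Across the 511 long contigs the level and the number of these junctions had a Spearman's rho of 0.535, and since reads set both, this is a description only.

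The junctions inside long contigs were short and often read, and some of them overlapped one another. The 2838 junctions of at least 10 reads inside long contigs had a median span of 282.5 bases, against 1165 bases for all 120859 junctions of that depth and 792 bases for those under 5000 bases, and a junction has to fit inside its contig. Their median count was 263 reads, against 58 over all such junctions. Together they held 3973356 reads, 10.6% of all junction reads. The junction calls give 2 library counts, not tied to a replicate number, and the first held 50% of the reads inside long contigs and 49.0% of all junction reads.

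By position in the host gene, 465 contigs could be placed relative to shared splice sites. Of these 357 (76.8%) ran through exons and at least 1 whole intron, 50 (10.8%) lay at least 90% in 1 exon, 17 lay mostly in an intron, 19 lay mostly past the annotated 3′ end and 22 were in no such class. The annotated 3′ end was covered by 177 contigs (38.1%) and the 5′ end by 44 (9.46%). Among the contigs that held introns, a median of 34.14% of the length was annotated exon and a median of 5 annotated introns was covered whole. Among those that held none, a median of 89.82% was annotated exon. Exon here means an exon of any annotated transcript but those annotated as retaining an intron, so it can overlap an intron of another.

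The length of 1 contig, its level and the structure inside it differed widely between genes. Muc2 encodes the gel-forming mucin of the intestine. Its longer contig (chr7:148930517-148940858, plus strand) had 10342 bases, a level of 871, a mean depth of 14900, 45 junctions of at least 10 reads and 18 annotated introns covered whole. Another contig of 6951 bases and level 291 was also named Muc2, but its distance to the splice sites differed between matches, so it was not placed. Krt19 and Krt8 encode keratins of simple epithelia. The Krt19 contig (chr11:100001965-100007385, minus strand) had a level of 686 with 6 whole introns, and the Krt8 contig (chr15:101826903-101832196, minus strand) had a level of 456 with 7. Eef2 encodes a translation elongation factor and its contig (chr10:80639349-80645549, plus strand) held the whole gene, both ends and 13 introns included, at a level of 530. The contig of Phgr1, a small gene of the gut epithelium, had a level of 494, and that of Atp5d, a subunit of the mitochondrial ATP synthase, 282.

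**Figure D2:**
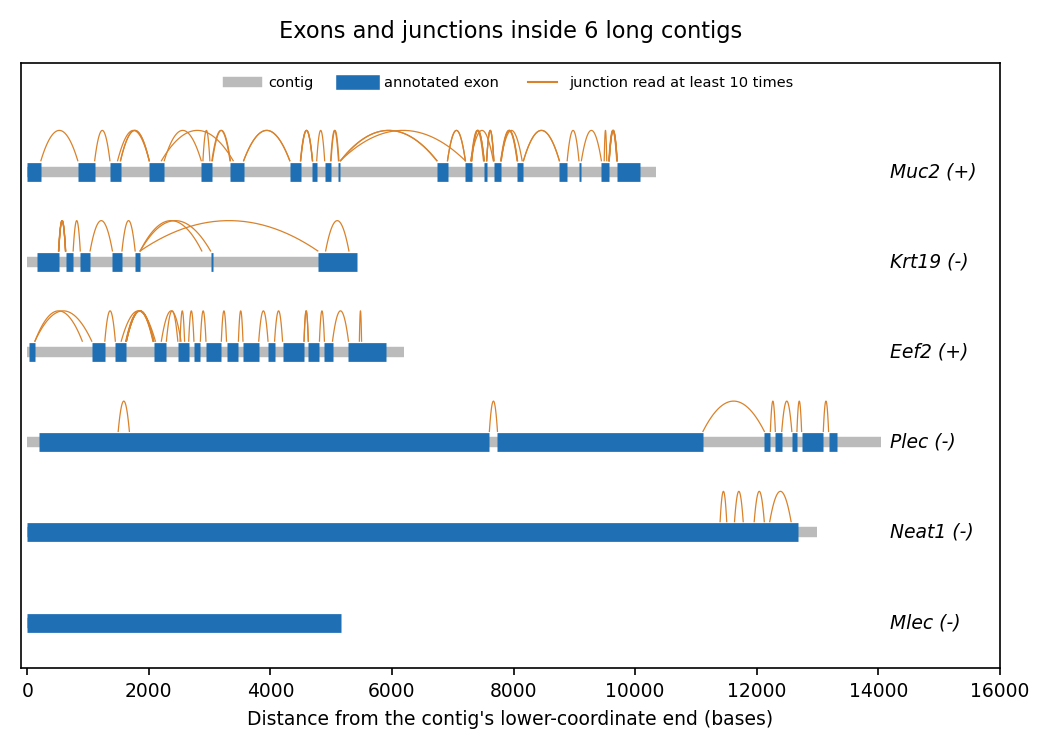
Each grey bar is 1 long contig drawn from its lower-coordinate end, in bases. Blue blocks are annotated exons merged over the gene's transcripts, without those annotated as retaining an intron. Orange arcs are junctions read at least 10 times. In Muc2, Krt19 and Eef2 the grey bar runs through 18, 6 and 13 introns, while the Neat1 and Mlec contigs are almost all 1 exon.

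Among the 10 contigs with the highest level, 2 more took the names of several genes. A contig of 12425 bases on chromosome 7 (29614562 to 29626986, plus strand, level 270) took junctions of both Ech1, a peroxisomal and mitochondrial fatty acid enzyme, and Lgals4, a galectin of the gut epithelium. A contig of 6637 bases on chromosome 11 (58201512 to 58208148, plus strand, level 412) held 86 junctions of at least 10 reads, the most of any long contig, and matched Lypd8 together with other genes. With junctions of at least 10 reads alone it matched only Lypd8. Most of its 86 junctions overlapped one another within a short part of the contig, so 86 is not a number of separate introns. Whether these junctions come from splicing was not tested. Lypd8 encodes a secreted colonic protein that keeps flagellated bacteria away from the epithelium.

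The longest contigs were not those with the highest level. The longest contig of all lay in Gna11, a G protein alpha subunit (chr10:80991469-81008430, minus strand). It had 16962 bases, covered 6 introns of the gene whole and had a level of 41.2. Plekha6, a pleckstrin homology domain protein, held one of 14556 bases at a level of 27.1. Plec encodes plectin, which links intermediate filaments to junctions, and its contig of 14043 bases at a level of 93.7 was 82.44% exon. Sbno2, a transcriptional coregulator, held 13704 bases at 6.14. Cyhr1, a cysteine and histidine rich protein, held 13163 bases at 13.3. Neat1, the scaffold RNA of nuclear paraspeckles, held 12987 bases at 49.8. Baiap2l2, a membrane-bending protein of microvilli, held 12520 bases at 18.4. Gse1, a component of a chromatin complex, held 11978 bases at 5.28. A contig of 12370 bases on chromosome 17 at a level of 41.3 took junctions of Rhot2, Rhbdl1, Stub1 and Gm20683. Of these 8 named contigs only Neat1 lay at least 90% in 1 exon.

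The 50 contigs that lay at least 90% in 1 exon had a median level of 6.59. They included giant coding exons and long RNAs. The 2 contigs of Neat1 lay 97.64% and 91.04% in 1 exon, with levels of 49.8 and 6.06 and only 12 bases between them. The 2 contigs of Xist, the RNA of the inactive X chromosome, lay 98.68% and 99.89% in 1 exon, with levels of 6.69 and 3.74. Srrm2 and Son encode serine and arginine rich proteins of nuclear speckles. Their contigs had levels of 90.4 (92.39% in 1 exon) and 53.8 (99.91%), the highest of the 50. The contig of Mki67, a proliferation marker, lay wholly in 1 exon at a level of 1.54, and that of Il6st, the signalling receptor subunit for interleukin 6, lay 99.98% in 1 exon at 8.58. Tfcp2l1, a transcription factor of epithelia, lay 92.82% in 1 exon at 23.7.

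The 17 contigs that lay mostly in an intron had levels from 1.63, in Prom1 (a membrane protein of cell protrusions), to 95.8, in Cdx1 (an intestinal homeobox transcription factor). Atp1b1, a sodium pump subunit, held 2 contigs only 21 bases apart, of 10026 bases at 14.5 and 6146 bases at 11.2. The second of these lay mostly in an intron. Together they made a run of 16193 bases. Dnm2, an endocytic GTPase, had an intron contig at 9.29 and Myo1d, a motor protein of microvilli, one at 66.2, of which 44.21% was exon of some transcript.

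The 19 contigs that lay mostly past the annotated 3′ end had levels from 2.56, in Acsf3 (a mitochondrial acyl-CoA synthetase), to 61.9, in Syngr2 (a vesicle membrane protein). Carmn, a long noncoding RNA of smooth muscle, extended 4755 bases past its annotated end at a level of 25.7. Fam3b, a secreted cytokine-like protein, extended 4718 bases past its end at 7.50. Il22ra1 is a subunit of the receptor for interleukin 22, and its contig reached 3288 bases past the end at 15.4. Of all 465 placed contigs, 102 reached over 100 bases past the annotated 3′ end and 49 over 1000 bases. Among the latter was the contig of Tff3, the trefoil peptide of goblet cells, which covered the whole gene and 1037 bases beyond it at a level of 199.

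Contig boundaries rarely fell on a splice site. A junction ended exactly at the 5′ or the 3′ boundary in 16 of 511 long contigs (3.13%, exact 95% binomial interval 1.8 to 5.04), and at both in 0 (upper end of the interval 0.719%). The next contig on the same strand was often near: the median gap was 134 bases, against 398 bases over all contigs. No gap in the whole set of calls was under 11 bases. On the other strand, 253 long contigs (49.5%) were overlapped by a contig, whose level had a median of 3.434% of that of the long contig.

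Both strands held long contigs in near-equal number, with 251 on the plus strand (49.1%, exact 95% binomial interval 44.7 to 53.5) against 50.8% of all contigs. The median level was 13.1 on the plus and 14.45 on the minus strand. Chromosome 2 had 32 on the plus and 14 on the minus strand.

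Long contigs were spread over every chromosome but Y and the mitochondrial one, and their number did not follow the number of contigs. Chromosome 7 held the most, 55, or 1.51 per 1000 of its contigs. Chromosome 15 had the highest rate, 1.69 per 1000 (39 long contigs), and chromosome 10 had 1.42 (38). Chromosome 3 had the lowest rate among the autosomes, 0.264 (7), and the X chromosome had 4 long contigs, 2 of them Xist. Over the genome the rate was 0.909 per 1000. The longest contig was 4544 bases on the mitochondrial chromosome and 150 bases on Y.

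**Figure D3:**
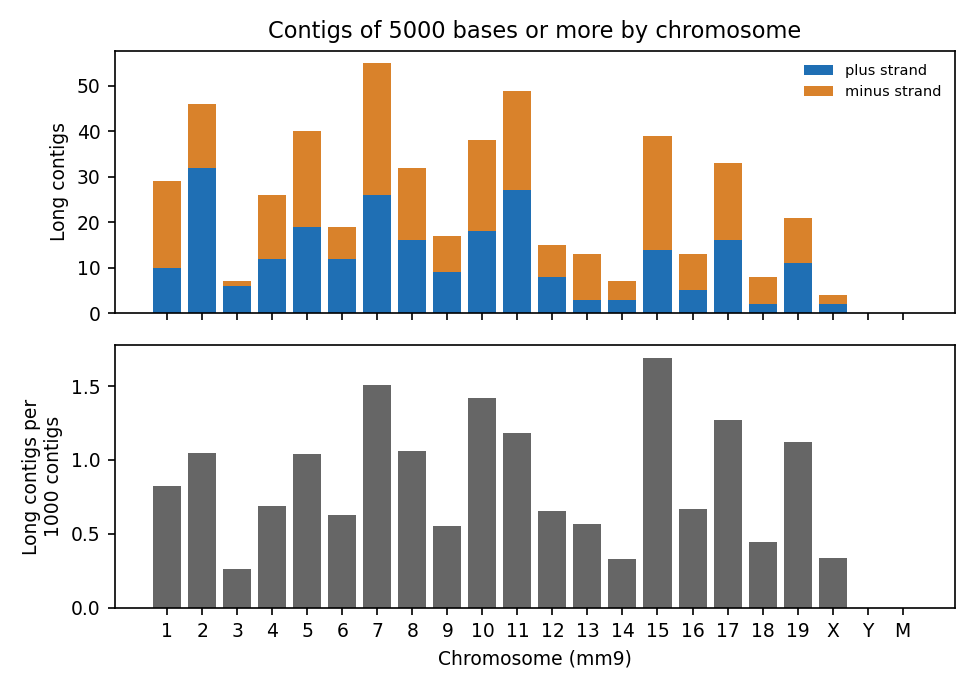
Upper bars give the number of long contigs on each mm9 chromosome, stacked by strand, and lower bars give long contigs per 1000 contigs of that chromosome. Chromosome 7 holds the most (55) and chromosome 15 has the highest rate (1.69 per 1000), while Y and M have none.

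Windows of 1 megabase show the same unevenness at a finer scale. Chromosome 10 held 15 long contigs between megabases 79 and 80 and 12 in the next window. Those 27 are 5.28% of the long contigs, while the 2 windows held 1576 contigs, 0.28% of all. Their named hosts run from Bsg, the cell surface protein basigin, to Gna11, and include Stk11, a kinase upstream of AMPK, Atp5d, Apc2, Tcf3, a helix-loop-helix transcription factor, Eef2 and Tjp3, a tight junction protein. Across the genome 39 windows with at least 3 long contigs held 161 of them (31.5%) and 4.64% of all contigs.

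Clustering was limited. With contigs of 1 strand joined at gaps of at most 10000 bases, 42 of 511 (8.22%, exact 95% binomial interval 5.99 to 10.9) stood in 20 clusters, and in 17 clusters both contigs belonged to 1 gene. The largest cluster lay on the minus strand of chromosome 18 (61165297 to 61196405). It held 4 contigs over 31109 bases, named in order Slc6a7, Cdx1, unnamed and Cdx1. The Cdx1 contigs had levels of 51.5 and 95.8. On chromosome 10 the largest cluster by span joined the 2 contigs of Sbno2, 3067 bases apart and with levels of 6.14 and 11. On chromosome 19 it joined the 2 contigs of Neat1, and on chromosome 2 the 2 of Dgkz, a diacylglycerol kinase, 3773 bases apart with levels of 11.2 and 34.4. Other pairs within 1 gene were in Hnf4a, a nuclear receptor of gut and liver epithelia (17.6 and 82.7), Sema4g, a semaphorin (42.2 and 194), and Atp2a3, a calcium pump of the endoplasmic reticulum (92.0 and 103). Atp5d stood beside Midn, which encodes midnolin, 1774 bases away.

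The gene tables give each library's value for the host genes, which the contigs do not. Levels are in TPM, transcript abundance scaled per length and to a fixed total. The total was 46271167 expected counts over Ensembl genes in replicate 1 and 45499561 in replicate 2. Markers of goblet cells summed to 28640 and 32350 TPM in replicates 1 and 2, of colonocytes to 7272 and 9738, and of smooth muscle to 6869 and 6762, so the markers of colon epithelium and muscle were present. Of the 5 markers of pancreatic acinar cells given above, 0 were host genes. The markers of B and plasma cells, endothelium, enteric neurons, fibroblasts and macrophages also had 0. Over all genes whose mean TPM was 1 or more, 3.23% were hosts, so 0 is near that share for sets this small. In tissue RNA, fewer cells of a type and less RNA per cell cannot be told apart.

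Host genes were mostly abundant. Their median mean TPM was 84.51, against 13.01 over the 13796 genes whose mean TPM was 1 or more. Of 446 hosts, 418 (93.7%) had a mean TPM of 10 or more, against 56.0% of those genes, and 184 (41.3%) stood in the top 10%. Across 466 contigs the level and the host's mean TPM had a Spearman's rho of 0.694, a description over contigs that share libraries and, in part, genes. Hosts whose contigs held introns had a median of 104.3 TPM and the others 22.27. The first also needed a junction of at least 10 reads inside a contig, which itself depends on abundance. Level per TPM differed by position in the gene, with medians of 0.47 for contigs in 1 exon, 0.171 for exons and whole introns, 0.167 past the 3′ end and 0.0527 in an intron. An intron contig thus had a low level for the abundance of its gene, whose median was 112 TPM, while contigs in 1 exon lay in genes of a median of 19.83 TPM.

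Most of the 10 most abundant hosts are genes of the epithelium. Phgr1 had 10420 TPM in replicate 1 and 13560 in replicate 2. Muc2 had 8861 and 11590 TPM, and Tff3 had 5686 and 5448. These were followed by Krt19 with 4406 and 4382 and Krt8 with 3796 and 3953. Lgals3, a galectin, had 3247 and 3160 TPM, and Fcgbp, a protein of the mucus layer, 3110 and 2917. Atp5d had 2553 and 2751 TPM and Eef2 1690 and 1713. The muscle actin gene Acta2 had 1951 and 1856 TPM and a contig of level 187. In none of these did the libraries differ by as much as 2-fold. Counting all bases in its contigs, Muc2 held the most, 188638679, followed by Krt19, Eef2, Phgr1, Krt8, Sema4g, Atp5d, Fcgbp, Pigr and Plec. Pigr, the receptor that carries immunoglobulin A across the epithelium, had 744.8 and 833.3 TPM and a contig of level 229.

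Few hosts differed between the libraries. A fold of 2 on log2(TPM + 0.5) was passed by 3 of 446 hosts (0.673%), against 3.75% of all 13796 genes tested, and at a mean TPM of 10 or more by 2 of 418 (0.478%) against 2.78% of 7732. All 3 were higher in replicate 1, where 1.57% of all genes passed, and 0 were higher in replicate 2, where 2.19% did. Xist had 15.41 TPM in replicate 1 and 0.24 in replicate 2, from 8721 and 12 expected counts, so nearly all reads of its gene came from 1 library. Without Xist, 2 of 445 hosts (0.449%) passed. The antisense RNA Hnf1aos1 had 32.53 and 12.01 TPM, a log2 ratio of 1.40. Isx, an intestinal homeobox factor that represses vitamin A uptake genes, had 123 and 50.45 TPM, a log2 ratio of 1.28. Next came Stum (0.96) and Gm15998 (0.87), both within 2-fold. At the other end stood Ighm, with 39.79 and 77.89 TPM (-0.96), then Hjurp, a centromere chaperone (-0.78), Ahdc1 (-0.57), Mta1, a subunit of a deacetylase complex (-0.56), and Gne, an enzyme of sialic acid synthesis (-0.54). There is 1 library on each side, so these are differences between 2 libraries with no replicate check.

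**Figure D4:**
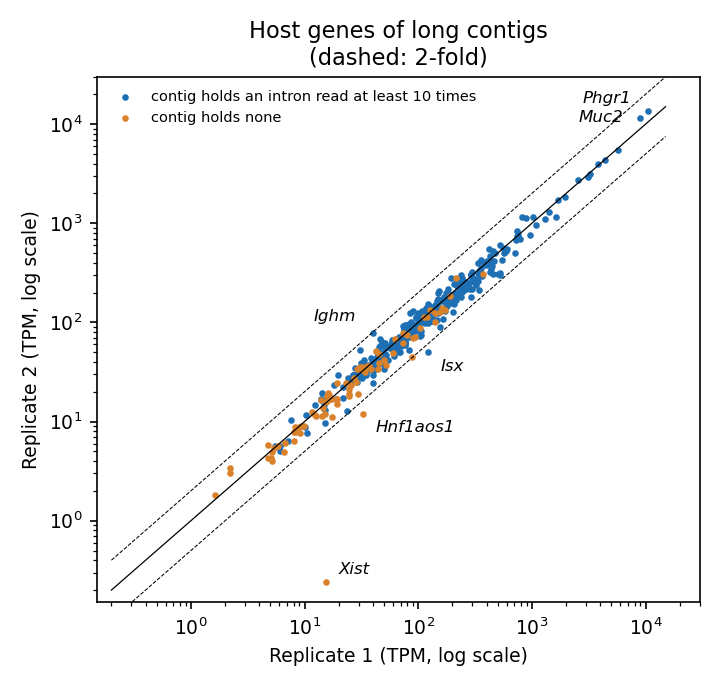
Each point is 1 of 446 host genes, with its TPM in replicate 1 on the horizontal and in replicate 2 on the vertical log axis; the solid line is equality, the dashed lines are 2-fold, and the colour tells whether its contigs hold an intron read at least 10 times. Xist, Hnf1aos1 and Isx lie outside the lines once 0.5 is added, and Ighm lies just inside the upper one.

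The tables of transcripts bear on the introns by another route, since some annotated transcripts are of the retained-intron class. Such a transcript was listed for 176 of 365 hosts whose contigs held introns (48.2%) and for 30 of 81 hosts whose contigs held none (37%). The share was 42.9% of genes at a mean TPM of 10 or more that were no hosts and 37.5% of all 13796 genes. Genes without one have no value here, so the following medians cover only genes that have one. In the first hosts, these transcripts made up a median of 14.9% of the gene's TPM in replicate 1 and 14.7% in replicate 2. In the second the medians were 2.9% and 2.81%, and among genes at 10 TPM or more that were no hosts they were 7.04% and 7%. Both sets of hosts also differed in abundance, as given above, and the part of that was not tested. The quartiles overlapped, with 4.38% to 34.2% in the first and 0.7% to 7.29% in the second in replicate 1. Muc2, Krt19, Krt8, Eef2 and Phgr1 have no such transcript in the tables, so for them these values say nothing about introns. Fcgbp had 77.3% and 75%, Plec 0.31% and 0.15%, and Grb7, a receptor adaptor protein, 89.4% and 91.2%. Grb7 was chosen after its value was seen.

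**Figure D5:**
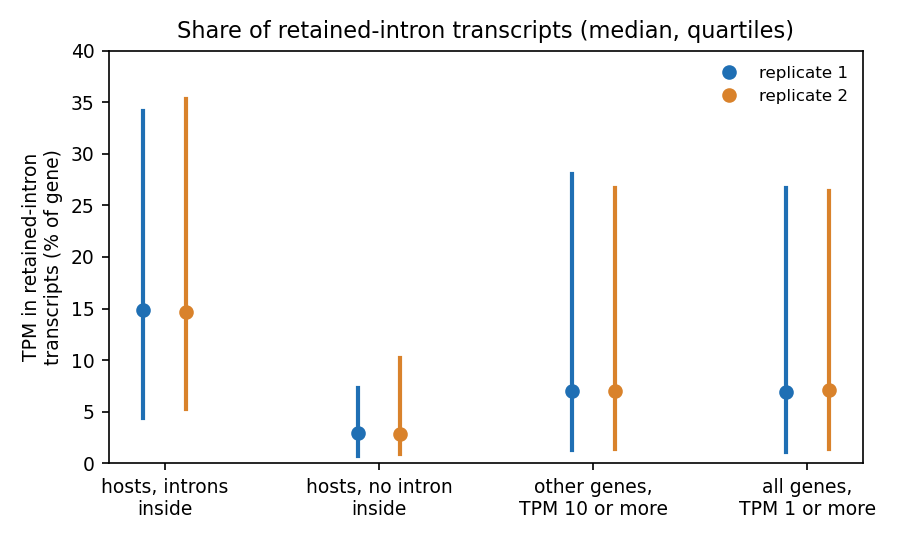
Points are the median share of a gene's TPM in annotated retained-intron transcripts, in percent, and lines run from the lower to the upper quartile, over those genes of each of 4 sets that have such a transcript (176 of 365, 30 of 81, 3136 of 7314 and 5178 of 13796), in each replicate. Hosts whose contigs hold introns have medians of 14.9% and 14.7%, the highest of the 4, and their quartiles overlap those of the other sets.

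Hosts in gene lists are counted beside the background: 3.23% of all genes whose mean TPM was 1 or more were hosts, and 5.41% of those at 10 or more. The lists are short, so the counts are descriptions. Of 18 genes of mucins and mucus, 10 had a TPM of 1 or more and 4 were hosts: Muc2, Fcgbp, Muc3, a membrane mucin (level 34.7), and Agr2, a disulfide isomerase that folds mucins (45.3). Of 20 genes of smooth muscle and cytoskeleton, all at 1 TPM or more, 4 were hosts: Acta2, Myh11, smooth muscle myosin (11.8), Myh9, nonmuscle myosin (31.8), and Smtn, smoothelin (22.6). Of 16 immune genes, all at 1 TPM or more, 4 were hosts: Pigr, Il6st, Ighm (12.6) and Nlrp6, an inflammasome sensor of the epithelium (27.2). Of 20 genes with giant coding exons, 16 had a TPM of 1 or more and 5 were hosts: Plec, Mki67, Srrm2, Ahnak, a giant scaffold protein (5.25), and Ankrd11, a chromatin regulator (19). Of 27 regulators of chromatin and splicing, all at 1 TPM or more, 3 were hosts: Srrm2, Son and the RNA helicase Ddx17 (43.9).

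The other lists had 2 hosts, 1 or 0. Of 20 long nuclear noncoding RNAs, 12 had a TPM of 1 or more and 2 were hosts, Neat1 and Xist. Of 14 genes of ion and bile transport, 2 were hosts: Atp1b1 and Slc20a1, a phosphate transporter (11.7). Slc26a3, also of this list, was named together with Rrm2 by 1 long contig and was not counted. The matrix list of 17 had Col6a2, a chain of collagen VI (39.3), the adhesion list of 18 had Plec, and the housekeeping list of 15 had Eef2. There were 0 hosts among 25 regulators with long 3′ untranslated regions, of which 23 had a TPM of 1 or more, and among 14 pancreatic acinar genes. The 15 mitochondrially encoded genes could not be hosts, since no contig of their chromosome reached 5000 bases and they have no introns to match. Intestinal transcription factors outside the lists also held long contigs, chosen here after their values were seen: besides Cdx1, Hnf4a and Isx, Cdx2 had a contig of 6531 bases at a level of 61.7, covering the 5′ end of the gene and 2 whole introns.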

How the data were processed

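Polyadenylated colon RNA was measured in 2 libraries of 1 group. Contigs and junctions are on mm9, per the deposited file notes, with 1 file each for the series. The authors deposited a signal per contig (level and summed bases), a score whose meaning is not stated and is not used, and a count of reads per junction. Per the file headers, the gene tables hold expected counts, TPM and FPKM (not used) and the transcript tables a percent of the gene's abundance per transcript. Those tables rest on mm10 with GENCODE M4, per the deposited file notes. Which aligner and which contig and junction callers were used is not stated by the labels or notes.

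No coordinate was converted between builds. Hosts came from chains of intron, exon and intron lengths (exons up to 20000 bases, junctions within 5 bases of the contig) in GENCODE vM21. Run on junctions made from 500 annotated transcripts of 485 genes, the match gave 470 genes a single name and left 15 with several names. These junctions came from the annotation that was searched, so a single name could only be the right one. How often a real contig takes a wrong name was not tested. Position in a gene was taken from distances to shared splice sites. Folds are log2(TPM + 0.5) over genes whose mean TPM was 1 or more. Intervals are exact 95% binomial (Clopper-Pearson) and cover counting error only. They treat contigs as independent, though the contigs share libraries and, in part, genes. No test was run, since 1 group allows none. Tools were python 3.11.15, pandas 2.3.3, numpy 2.4.6 and scipy 1.17.1.

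The members and lists were chosen with earlier results of these data known. Named are the 10 longest contigs, the 10 of highest level, the 5 of most summed bases, 3 on each side of the length minimum, the largest cluster by span on each of the 3 chromosomes with most clustered contigs, the 10 hosts of highest TPM and of most bases, the 5 largest ratios each way, up to 4 hosts per list (and the fifth of the giant coding exon list, to complete its count), and the largest cluster of all, examples per position class and gene pairs chosen after their values were seen. Alternatives changed the length minimum, cluster gap, boundary and junction criteria, match rule, pseudocount, TPM filter and libraries.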

Additional observations from a re-analysis of the deposited data

How the results depend on the processing

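With a length minimum of 4000, 7500 or 10000 bases in place of 5000 there were 1103, 83 and 21 long contigs. At 7500 bases their median level was 19 and 40.96% lay on the plus strand; the mean level weighted by length was 38.05, with the contig on chromosome 17 in it. The share in clusters was 2.935% at a gap of 1000 bases, 17.03% at 50000 and 11.74% over either strand. A junction ended at a boundary in 8.806% of contigs when 5 bases were allowed and in 0.9785% with junctions of at least 10 reads. A junction of any depth lay inside 95.5% of long contigs, 78.28% at 10 reads or more, and 75.93% when the reads also had to reach 10% of the contig's mean depth, an alternative chosen after seeing the data. At least 2 matching chains named 76.32% of contigs, and junctions of at least 10 reads named 87.67%. The 447 contigs named both ways could only keep the same gene, since the junctions of at least 10 reads are part of all junctions. The share of hosts past 2-fold stayed between 0.6726% and 0.6818% under 5 alternatives, and was 0.449% without Xist, an alternative also chosen after seeing the data. The median host TPM was 82.37 without replicate 1 and 87.18 without replicate 2. No paired analysis was possible because there is only 1 group. A contig has 1 level for both libraries and no separate depth for its exons and introns, so whether its introns were covered evenly is not known from these calls.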
